A study of Homo sapiens with 6 samples.

Results

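The long noncoding RNA genes that carry a LINC number as their name were examined in SW872 cells with and without Apatinib. Of the 57773 gene rows in the count table, 614 were named LINC followed by digits only. Of these, 284 had no count in any of the 6 replicates and 207 had between 1 and 59 counts in all. The remaining 123 rows, with 60 or more counts summed over the 6 replicates, are the LINC genes described here. They were chosen by total abundance, which does not use the contrast between the groups. LINC00672, with 63 counts, was the last row inside the limit, after LINC00271, LINC00525, LINC00629 and LINC00884 with 64 counts each, and LINC01132, with 56 counts, and LINC00882, with 54 counts, were the first outside it.

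SW872 is an established human liposarcoma cell line, and Apatinib is a tyrosine kinase inhibitor of VEGFR-2. In the Apatinib group, cells grown in RPMI-1640 medium with FBS received 18 μM Apatinib for 24 h, and the control group was the same line without the drug. Each group had 3 replicates, which the study's methods describe as biological, all from this 1 cell line. RNA was sequenced, and the counts of each gene and its FPKM were available for every replicate.

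Most LINC genes did not pass the test for a change with Apatinib. Of the 119 that were tested, 9 (7.56%) were differentially expressed genes (DEGs), beside 11.5% of all genes tested. This order depended on the filter on low counts: without it 16 of 123 LINC genes were DEGs (13.0%), beside 7.85% of all genes. Among the 9, LINC00900 had the largest rise, from a mean of 2.17 to 6.68 CPM, and LINC00565 the largest fall, from 3.23 to 1.01 CPM, the count scaled to a common library size with the TMM factors of edgeR. DEGs needed an FDR below 0.05 together with a log2 fold change (log2FC, positive where expression was higher with Apatinib) greater than 0.5 in size. FDR is the p value of edgeR's quasi-likelihood test adjusted by the Benjamini-Hochberg method over all 16290 genes tested.

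LINC is the symbol given to long intergenic noncoding RNA genes that have no more specific name. Long noncoding RNAs are transcribed and usually spliced like messenger RNAs without encoding a long protein, and they can act as scaffolds or decoys for proteins, or act on the gene next to them. Some genes first named LINC were later found to encode a short peptide and were renamed. The annotation used for naming, GENCODE release 29, held 117 of the 123 identifiers, and 26 of these had another name there. It typed 74 as lincRNA, 13 as protein-coding, 11 as antisense and 8 as processed transcripts. Their exons covered a median of 3115 bases, from 436 to 27605, and 16 had a single exon.

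Promoters are shown for 4 LINC genes, picked after their values were known. LINC00900 and LINC00565 were the 2 whose change passed the test whichever replicate was left out. LINC00910 had the highest counts of the LINC DEGs that rose, and LINC00920 lay 3738 bases from a protein-coding gene that changed in the same direction. Each sequence runs from 250 bases before to 50 bases after the start of the gene in RefSeq (GRCh38.p14) and is written 5′ to 3′ on the strand of the gene. Capitals mark the motifs that were found on either strand: GGGCGG, the GC box, in LINC00900, TATAAA, the TATA box, in LINC00910, and CCAAT, here read on the other strand, in LINC00565. LINC00900 is at chr11:115760151-115760450 on the minus strand, and LINC00910 is at chr17:43388849-43389148 on the minus strand. LINC00565, named SWINGN in RefSeq, is at chr13:113928942-113929241 on the minus strand, and LINC00920 is at chr16:66408274-66408573 on the plus strand.
LINC00900: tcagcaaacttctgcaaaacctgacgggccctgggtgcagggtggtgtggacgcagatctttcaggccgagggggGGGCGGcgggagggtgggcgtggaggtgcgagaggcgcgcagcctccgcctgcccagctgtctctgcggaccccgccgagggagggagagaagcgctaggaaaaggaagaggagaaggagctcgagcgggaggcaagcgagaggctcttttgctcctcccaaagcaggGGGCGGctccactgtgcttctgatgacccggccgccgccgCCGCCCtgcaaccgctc
LINC00910: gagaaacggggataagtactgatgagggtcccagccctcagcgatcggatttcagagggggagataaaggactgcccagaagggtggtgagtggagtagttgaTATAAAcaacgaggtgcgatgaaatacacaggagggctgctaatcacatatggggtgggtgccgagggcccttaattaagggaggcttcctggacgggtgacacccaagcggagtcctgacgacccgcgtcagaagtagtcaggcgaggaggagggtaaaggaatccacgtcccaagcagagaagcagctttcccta
LINC00565: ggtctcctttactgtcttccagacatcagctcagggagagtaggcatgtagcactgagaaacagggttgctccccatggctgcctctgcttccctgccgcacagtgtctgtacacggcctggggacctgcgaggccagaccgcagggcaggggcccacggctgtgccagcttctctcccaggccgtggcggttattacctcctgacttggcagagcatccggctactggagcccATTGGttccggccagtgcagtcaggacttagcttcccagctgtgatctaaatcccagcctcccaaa
LINC00920: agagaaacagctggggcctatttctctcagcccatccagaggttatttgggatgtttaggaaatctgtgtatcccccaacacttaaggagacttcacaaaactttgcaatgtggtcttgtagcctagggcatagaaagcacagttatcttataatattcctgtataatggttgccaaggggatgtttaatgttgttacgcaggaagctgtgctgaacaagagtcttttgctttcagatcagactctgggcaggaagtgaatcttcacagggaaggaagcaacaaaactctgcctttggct

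RefSeq promoters were matched for 93 of the LINC genes. The GC box was in the promoters of 47 of them (50.5%) and in 45.0% of all 35116 promoters of the same length. CCAAT was in 39.8% and 34.6%, and TATAAA in 7.53% and 11.5%. The other motifs searched on both strands were the AP-1 site TGANTCA (10.8% and 7.71%), the CRE TGACGTCA (3.23% and 1.85%), the E-box CACGTG (8.6% and 7.26%), the CHR TTTGAA (9.68% and 15.2%) and the E2F sites TTTGGCGC or TTTCCCGC (3.23% and 2.27%). These shares describe letters only. GC content had a median of 61.33% in the promoters of the LINC genes and 58.67% in all promoters. LINC00920, at 43.7%, had none of the motifs searched and the lowest GC content of the 7 promoters matched among the LINC genes that changed with Apatinib.

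The replicates had between 17043314 and 22067558 counts in all. The mesenchymal markers fixed for a check of the label (8 of 8, among them VIM, COL1A1 and FN1) had over 1 CPM in every replicate. Of 7 adipocyte markers, 3 had a mean over 1 CPM, and the defining markers ADIPOQ and FABP4 had no counts. None of 4 epithelial and none of 4 blood markers reached this mean, and their summed level stayed under 0.5 CPM in both groups. Of 3 endothelial markers, 2 had a mean over 1 CPM, with summed levels of 2.71 to 4.41 CPM in treated and 2.86 to 3.99 CPM in untreated cells. Control replicates 1 and 2 formed the closest pair of replicates: the SD of their log2 CPM differences over the LINC genes was 0.402, while the other pairs within a group gave 0.456 to 0.572. The LINC DEGs are therefore given with and without each of these 2 replicates.

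The LINC genes spanned a wide range of levels. Mean FPKM, fragments scaled to transcript length and to the mapped fragments of the library, ran from 0.125 to 57.8, with a median of 1.52. All LINC genes together made up 0.125% to 0.140% of all counts in each replicate. One gene supplied a large part of them, and without it the share was between 0.0878% and 0.1003%. In bulk RNA a higher share of cells that express a gene and more RNA per cell cannot be told apart.

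**Figure D1:**
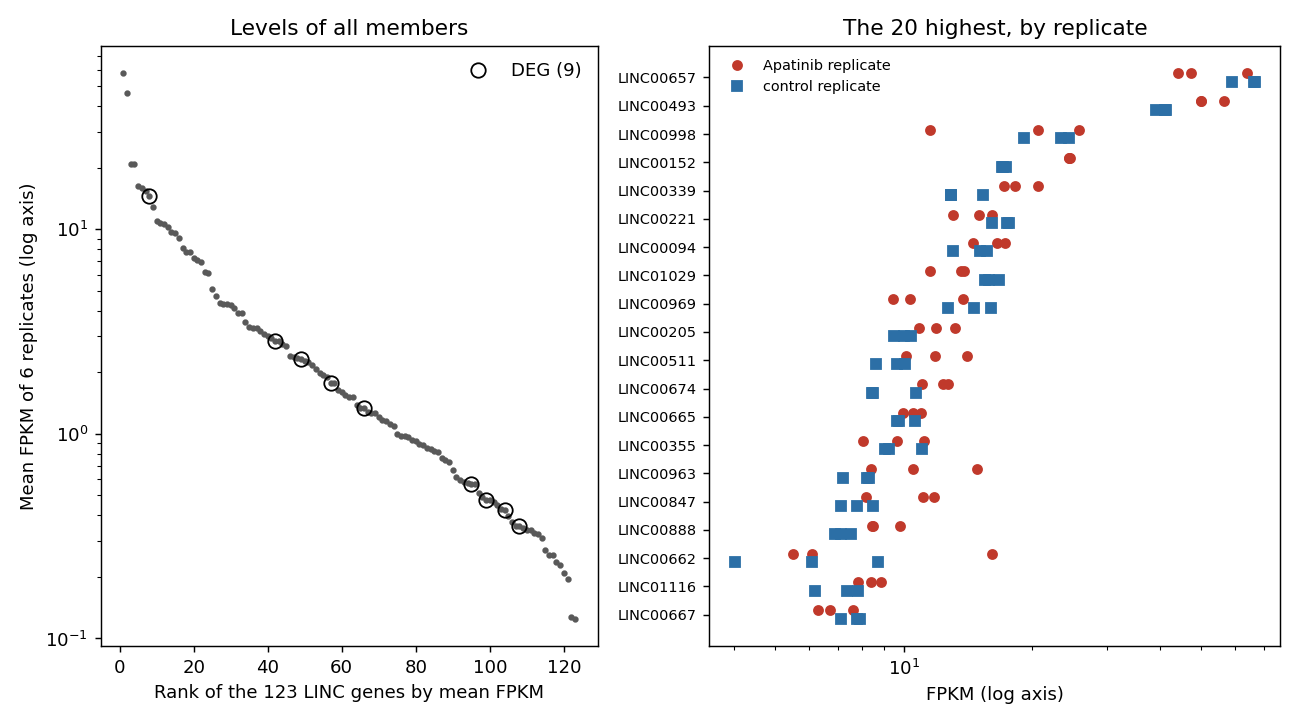
Left, mean FPKM over the 6 replicates (log axis) of each of the 123 LINC genes against its rank, with open circles on the 9 DEGs. Right, FPKM (log axis) of the 20 highest in each Apatinib replicate (circles) and control replicate (squares); LINC00657 leads, and 1 DEG, LINC01029, is among the 8 highest.

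That gene was LINC00657 (ENSG00000260032), known as NORAD, which is induced by DNA damage and binds Pumilio RNA-binding proteins such as PUM2. Its FPKM was 47.1, 43.9 and 63.9 in the Apatinib replicates, against 66.4, 66.6 and 58.9 in the control replicates. The groups overlapped, since Apatinib replicate 3 lay above control replicate 3. LINC00657 had a log2FC of -0.32 (SE 0.150) with an edgeR FDR of 0.169.

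The NORAD transcript of GENCODE 29, a single exon of 5339 bases on the minus strand of chromosome 20, was searched for the Pumilio element TGTANATA on its own strand. It held 15 of them, or 2.81 per kb, and none of the other LINC transcripts held more than 2. Of the 117 LINC transcripts, 23 held at least 1. Of 4341 transcripts of other genes and NORAD, the longest of each gene with a length within 20% of that of NORAD, 41.4% held at least 1 and 3, NORAD included, held 15 or more. Elements 4 with 5, 9 with 10, and 12 with 13 are close pairs whose windows overlap. Of the 15 elements of NORAD 5 are shown, with the element in capitals: 4, 5, 11, 12 and 13. In order, they lie at chr20:36049501-36049530, chr20:36049492-36049521, chr20:36047971-36048000, chr20:36047668-36047697 and chr20:36047659-36047688 (GRCh38, minus strand, written 5′ to 3′).
NORAD element 4: ttacttatctgTGTATATAgtgtacataaa
NORAD element 5: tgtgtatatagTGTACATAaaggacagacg
NORAD element 11: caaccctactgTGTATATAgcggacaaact
NORAD element 12: ttactgtgctgTGTATATAgtgtatataag
NORAD element 13: tgtgtatatagTGTATATAagcggacatag

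PUM2 did not pass the test either. It had 1576, 2011 and 2264 counts in the Apatinib replicates, against 2768, 2969 and 2948 in the control replicates, a log2FC of -0.45 (edgeR FDR = 0.0618). The counts of PUM2 did not overlap between the groups. Near-identical copies of NORAD exist: 86.2% of its transcript aligned at 95% identity or more with OVCH1-AS1, so its counts are uncertain where the counting could split such reads.

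Below NORAD in level stood LINC00493 (SMIM26) and LINC00998 (SMIM30), both now known to encode small membrane proteins. LINC00493 had 49.9, 56.6 and 50.0 FPKM in the Apatinib replicates, against 41.2, 39.2 and 41.1 in the control replicates. Every Apatinib replicate lay above every control replicate, but the log2FC of 0.32 had an FDR of 0.104. LINC00998 had 20.7, 11.5 and 25.8 FPKM in the Apatinib replicates, against 24.5, 23.4 and 19.1 in the control replicates, and Apatinib replicate 2 stood apart as the lowest. edgeR gave it a log2FC of -0.20 (edgeR FDR = 0.594), and 0.07 without Apatinib replicate 2.

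LINC00152 (CYTOR), a long noncoding RNA studied in many cancers, was close behind. It had 24.4, 24.5 and 24.5 FPKM in the Apatinib replicates, against 17.4, 16.99 and 17.1 in the control replicates. The 2 groups were far apart relative to the spread within them. The log2FC from the counts was 0.48 (SE 0.132, edgeR FDR = 0.0387), under the limit of 0.5 that a DEG had to exceed. The FDR was over 0.05 without Apatinib replicate 1 (0.0843) or 3 (0.0565) and without control replicate 1 (0.179), 2 (0.151) or 3 (0.0620). On log2(FPKM + 0.1) with limma the log2FC was 0.51 (FDR = 0.0279), and on log2(FPKM + 1) LINC00152 was no DEG. LINC00339 had 18.2, 20.7 and 17.2 FPKM in the Apatinib replicates, against 15.4, 12.9 and 12.9 in the control replicates, without overlap, and a log2FC of 0.46 (edgeR FDR = 0.0491). It also stayed under the limit on the fold change, and reached it without Apatinib replicate 3 (0.54, edgeR FDR = 0.0439). Leaving out any of the other 5 replicates took its FDR over 0.05, to between 0.0795 and 0.224.

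LINC00221, at a mean of 15.9 FPKM, and LINC00094 (BRD3OS), at 15.4 FPKM, showed log2FC values of -0.19 (edgeR FDR = 0.331) and 0.10 (edgeR FDR = 0.680). Every replicate of LINC00493 lay above every replicate of LINC00998, and LINC00152 lay above LINC00339 within each replicate. Other neighbours in this order overlapped. LINC00657 and LINC00493 overlapped in their replicates, as did LINC00998 with LINC00152, and LINC00339, LINC00221, LINC00094 and LINC01029 with one another, as the plot of levels shows.

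Of the 123 LINC genes, 119 passed the filter on low counts and were tested, none of them through 1 group alone. LINC00240, LINC00884, LINC00271 and LINC00672 did not pass. Of the 9 DEGs, 5 were higher with Apatinib (4.20%, beside 5.97% of all genes) and 4 were lower (3.36%, beside 5.48%).

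The groups did not overlap in CPM in 45 LINC genes (37.8%), beside 33.2% of all genes. Apatinib lay above in 29 of them (24.4%, beside 17.5%) and below in 16 (13.4%, beside 15.7%). An FDR under 0.05 alone was reached by 11 (beside 12.9% of all genes), and an unadjusted p value under 0.05 by 31 (beside 30.6%). The log2FC was above 0 in 66 of the 119, beside 50.3% of all genes. Its median was 0.05 with quartiles at -0.27 and 0.37, and the median over all genes was 0.00284.

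**Figure D2:**
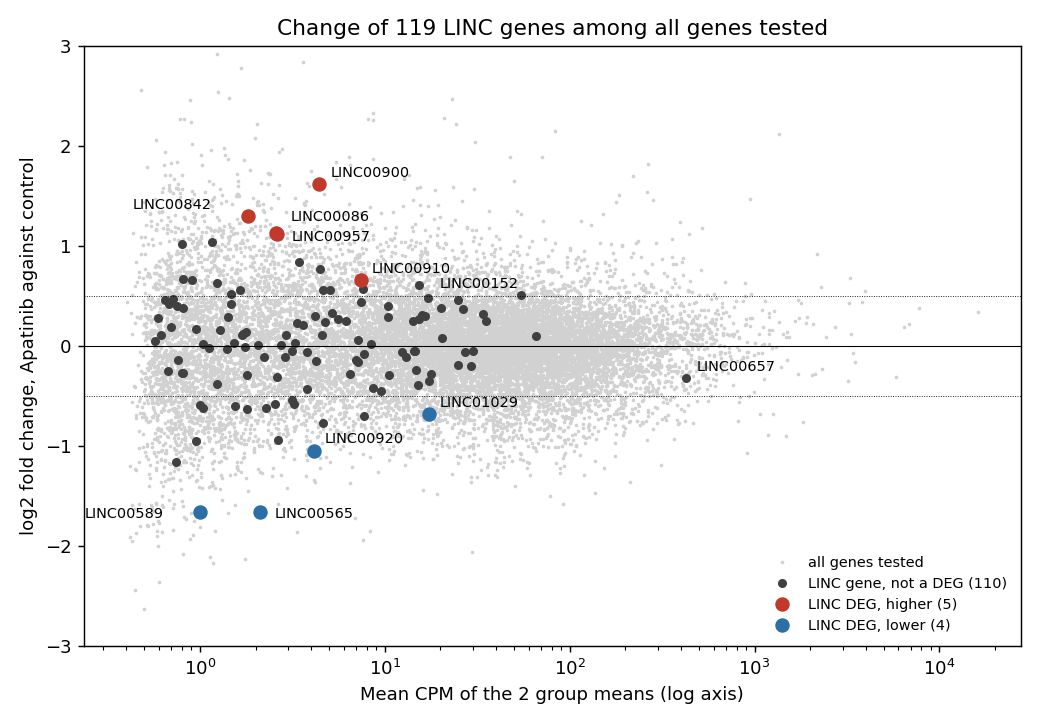
log2FC of Apatinib against control on the mean CPM of the 2 groups (log axis), with every gene tested in grey and the 119 LINC genes as larger points. Dotted lines mark the limit of 0.5 in size, and points beyond -3 or 3 are outside the axis; the 5 higher and 4 lower LINC DEGs all have a mean under 20 CPM.

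Among genes with a mean under 20 counts per replicate, 1 of 23 LINC genes was a DEG (4.35%, beside 4.82% of all genes in that range). Between 20 and 50 counts it was 4 of 29 (13.8%, beside 7.86%), and between 50 and 100 counts 2 of 22 (9.09%, beside 11.4%). It was 1 of 28 between 100 and 300 counts (3.57%, beside 14.9%) and 1 of 17 from 300 counts (5.88%, beside 12.5%). Single replicates moved these 2 shares. Without Apatinib replicate 3 they were 10.7% (beside 14.1%) and 17.6% (beside 15.2%). From 300 counts the share was 11.8% (beside 10.4%) without Apatinib replicate 2, 5.88% (beside 5.68%) without Apatinib replicate 1 and 11.8% (beside 18.8%) without control replicate 3. Without control replicate 1 or 2, the ranges of 20 to 50 and of 50 to 100 counts held 1 LINC DEG each (3.45% and 4.55%) and the other ranges none. Of all genes in these 2 ranges, 0.873% and 2.0% were DEGs without control replicate 1 and 1.2% and 1.84% without control replicate 2.

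The calls depended on single replicates. Without control replicate 1 or without control replicate 2, only LINC00900 and LINC00565 of the 9 were DEGs, and the share of all genes called fell to 1.65% and 1.80%. With control replicates 1 and 2 summed as 1 sample, the same 2 were DEGs, beside 1.75% of all genes. Without control replicate 3 it was 11 LINC genes, 8 of them among the 9 (beside 15.5% of all genes). Without Apatinib replicate 1 it was 4, all among the 9 (beside 4.73%).

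**Figure D3:**
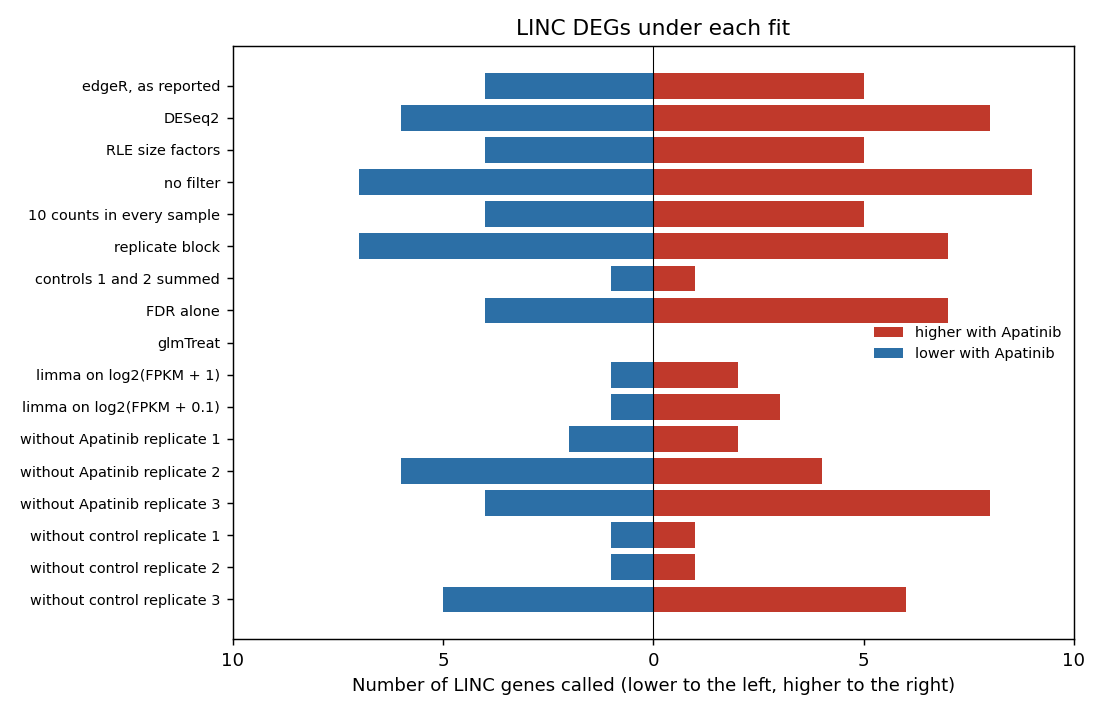
Number of LINC DEGs under the reported edgeR fit and each other fit, with higher genes to the right and lower genes to the left of 0. The bars shrink to 1 in each direction without control replicate 1, without control replicate 2 and with the 2 summed, and no bar is drawn for glmTreat, which called none.

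LINC00900 (ENSG00000246100) showed the largest rise of the LINC genes tested. It had 95, 176 and 80 counts in the Apatinib replicates, against 42, 36 and 46 in the control replicates. All Apatinib replicates lay above all controls, with replicate 2 the highest. Its expression averaged 6.68 ± 2.86 CPM in the treated cells, against 2.17 ± 0.229 CPM in untreated cells (SD, n = 3). Its change amounted to a log2FC of 1.62 (SE 0.295, edgeR FDR = 0.00951). The FDR stayed at or under 0.0465 whichever replicate was left out, with log2FC values from 1.22 to 1.84. The nearest protein-coding gene, the cell adhesion gene CADM1, lay 249291 bases away and had a log2FC of -0.14 (edgeR FDR = 0.582).

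LINC00842 (ENSG00000223477) had 52, 40 and 43 counts in the Apatinib replicates, against 23, 23 and 13 in the control replicates. The lowest Apatinib replicate was well above the highest control. This was a log2FC of 1.30 (SE 0.332, edgeR FDR = 0.0298). The FDR was 0.0907 without Apatinib replicate 1, and 0.0763, 0.0831 and 0.0521 without control replicates 1, 2 and 3. Its identifier was not among those found in GENCODE 29, and its neighbours were not analysed here.

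LINC00086 (ENSG00000178947), renamed SMIM10L2A and typed as protein-coding in GENCODE 29, had 48, 90 and 49 counts in the Apatinib replicates, against 24, 28 and 42 in the control replicates. Apatinib replicate 2 was the highest, and Apatinib replicate 1 was near control replicate 3 before scaling. In CPM the groups were separate, at 2.79, 5.08 and 2.80 in the treated cells, against 1.39, 1.54 and 1.92. In edgeR its log2FC was 1.13 (SE 0.300, edgeR FDR = 0.0334). Without Apatinib replicate 2 it was 0.78 with an FDR of 0.0777, and without control replicates 1 and 2 the FDR was 0.134 and 0.127. Its relative LINC00087 (SMIM10L2B) had 22, 14 and 20 counts against 12, 8 and 10. The groups did not overlap, but the log2FC of 1.02 had an edgeR FDR of 0.101.

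LINC00957 (ENSG00000235314) had 82, 55 and 51 counts in the Apatinib replicates, against 26, 31 and 38 in the control replicates, so that the groups were separate and Apatinib replicate 1 was the highest. Its expression was 3.60 ± 1.02 CPM and 1.65 ± 0.129 CPM (SD, n = 3). edgeR gave it a log2FC of 1.12 (SE 0.266, edgeR FDR = 0.0234). The FDR was 0.0828 without Apatinib replicate 1, and 0.104 and 0.0918 without control replicates 1 and 2. Its exons overlap those of RASA4CP on the other strand over 642 bases, and 42.3% of its transcript aligned at 95% identity or more with transcripts of other genes. Reads of these genes cannot be told apart without the strand, which is not given in the sources used here.

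LINC00910 (ENSG00000188825) had the highest counts of the 5 LINC DEGs that rose. It had 163, 162 and 150 counts in the Apatinib replicates, against 96, 100 and 135 in the control replicates. The spread within each group was small, and the groups did not overlap. Its expression was 9.07 ± 0.452 CPM and 5.74 ± 0.384 CPM (SD, n = 3), a log2FC of 0.66 (SE 0.166, edgeR FDR = 0.0284). The FDR was 0.0737 without Apatinib replicate 1, and 0.132 and 0.137 without control replicates 1 and 2. Its exons share 192 bases with RNU2-4P, a small nuclear RNA copy on the same strand.

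**Figure D4:**
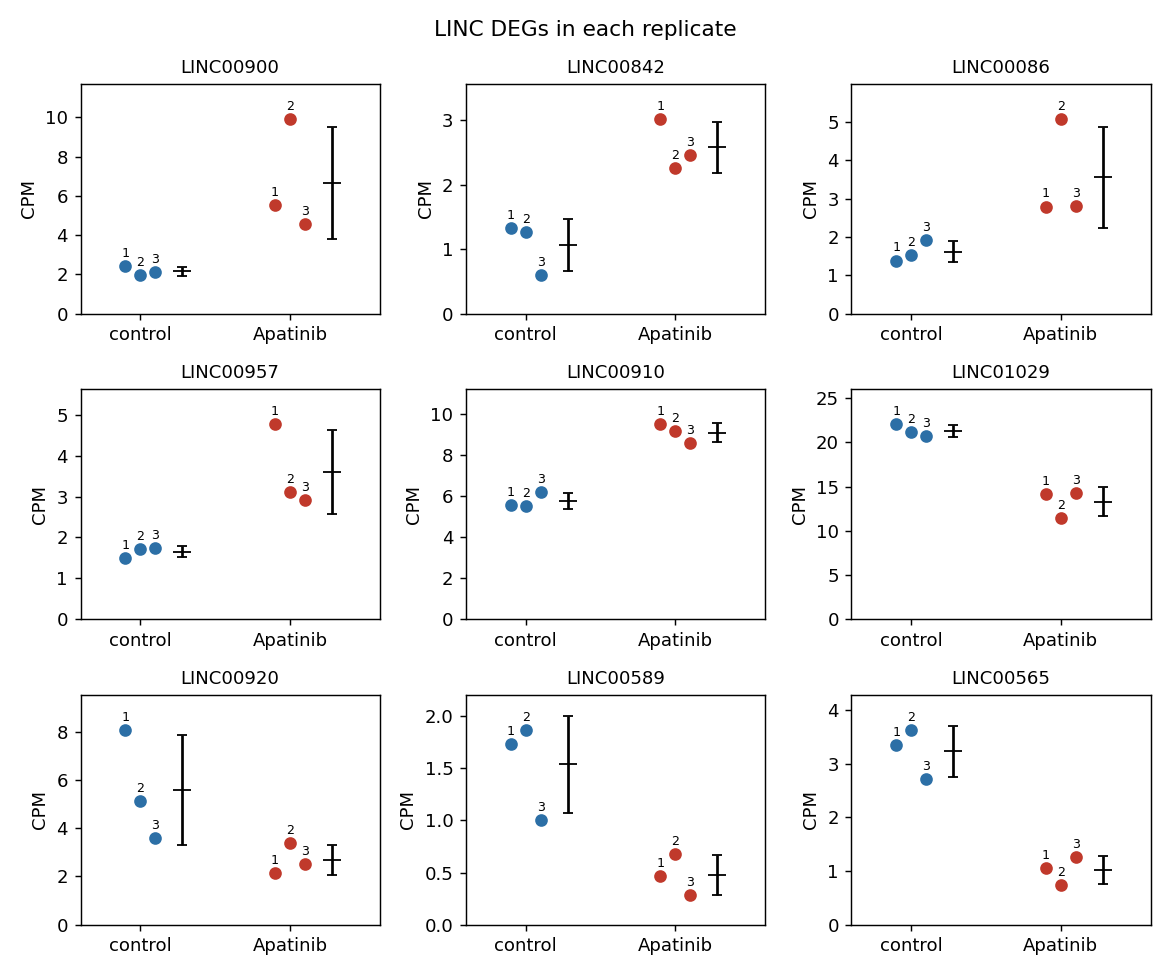
CPM of the 9 LINC DEGs in each replicate (points, with the replicate number above) and the mean with its SD beside them (n = 3), on axes that start at 0. In every panel the Apatinib points lie on one side of the control points, and LINC00900 and LINC00086 have their highest value in Apatinib replicate 2.

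LINC00565 and LINC00589 showed the largest falls of the LINC genes tested, nearly equal in size. LINC00565 (ENSG00000260910) had 18, 13 and 22 counts in the Apatinib replicates, against 58, 66 and 59 in the control replicates. The highest Apatinib replicate was far below the lowest control. Its expression averaged 1.01 ± 0.264 CPM in the treated cells, against 3.23 ± 0.475 CPM in untreated cells (SD, n = 3). Its change amounted to a log2FC of -1.66 (SE 0.286, edgeR FDR = 0.00776). It stayed between -1.84 and -1.47 whichever replicate was left out, with an FDR of at most 0.0465. LINC00565 is a single exon of 2331 bases without an exon of another gene over it in GENCODE 29.

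LINC00589 (ENSG00000251191) had the lowest counts of the 9, at 8, 12 and 5 in the Apatinib replicates, against 30, 34 and 22 in the control replicates. Its groups were separate at this depth. This was a log2FC of -1.66 (SE 0.416, edgeR FDR = 0.0279). The FDR was 0.0807 and 0.0697 without Apatinib replicates 1 and 3, and 0.110 and 0.127 without control replicates 1 and 2.

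LINC00920 (ENSG00000246898) had 37, 60 and 44 counts in the Apatinib replicates, against 140, 93 and 78 in the control replicates. The controls were widely spread, with control replicate 1 the highest, and the CPM of Apatinib replicate 2, at 3.39, came close to the 3.57 of control replicate 3. In edgeR its log2FC was -1.04 (SE 0.306, edgeR FDR = 0.0458). Without control replicate 1 it was -0.69 with an FDR of 0.213, and the FDR was 0.113 without control replicate 2, 0.134 without Apatinib replicate 1 and 0.10 without Apatinib replicate 3.

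LINC01029 (ENSG00000265843) had the highest counts of the 4 LINC DEGs that fell, at 243, 202 and 250 counts in the Apatinib replicates, against 382, 385 and 452 in the control replicates. The groups were far apart and the controls nearly equal in CPM, at 22.1, 21.2 and 20.7. edgeR gave it a log2FC of -0.68 (SE 0.146, edgeR FDR = 0.0156). The FDR was 0.0899 and 0.0803 without control replicates 1 and 2. The deposited FPKM showed a smaller difference, with 13.9, 11.5 and 13.6 against 16.7, 15.5 and 15.9. On log2(FPKM + 1) with limma the log2FC was -0.28 (FDR = 0.139), and on log2(FPKM + 0.1) LINC01029 was no DEG either.

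The nearest protein-coding gene was found for the LINC genes in GENCODE 29. Its distance had a median of 11587 bases, and 26 LINC genes overlapped the span of such a gene. Both the LINC gene and its neighbour were tested in 89 cases, and the 2 log2FC values had the same sign in 47 of them (52.8%). Of these 89 neighbours, 11 were DEGs (12.4%, near the 11.5% of all genes).

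Among the LINC DEGs, 7 had a neighbour that was tested, and in 3 of these the neighbour was a DEG of the same sign, of which 2 are described. In the other 4 the neighbour was no DEG and its log2FC, between -0.39 and 0.04, had the opposite sign. LINC00920 lay 3738 bases from CDH5 on the same strand. CDH5, the endothelial cadherin, had 17, 15 and 18 counts in the Apatinib replicates, against 41, 32 and 56 in the control replicates, a log2FC of -1.22 (edgeR FDR = 0.0242). Both genes fell, and in both the groups did not overlap. The FDR of CDH5 was 0.102 and 0.0618 without control replicates 1 and 2, 0.0527 without control replicate 3 and 0.0632 without Apatinib replicate 1. CDH5 is 1 of the 3 endothelial markers checked, of which VWF rose (49, 22 and 53 counts against 9, 12 and 27, log2FC 1.52, edgeR FDR = 0.0386, and 0.146 without control replicate 1, 0.142 without control replicate 2, 0.114 without Apatinib replicate 1 and 0.1005 without Apatinib replicate 3) and KDR had 4, 11 and 6 against 9, 8 and 4. The part of endothelial genes as a group in the fall of LINC00920 was not tested. LINC01029 lay 693398 bases from GALR1, a galanin receptor gene, whose log2FC was -1.12 (edgeR FDR = 0.0236). Its FDR was 0.108 without control replicate 2, and 0.0576 and 0.0511 without Apatinib replicates 1 and 3.

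**Figure D5:**
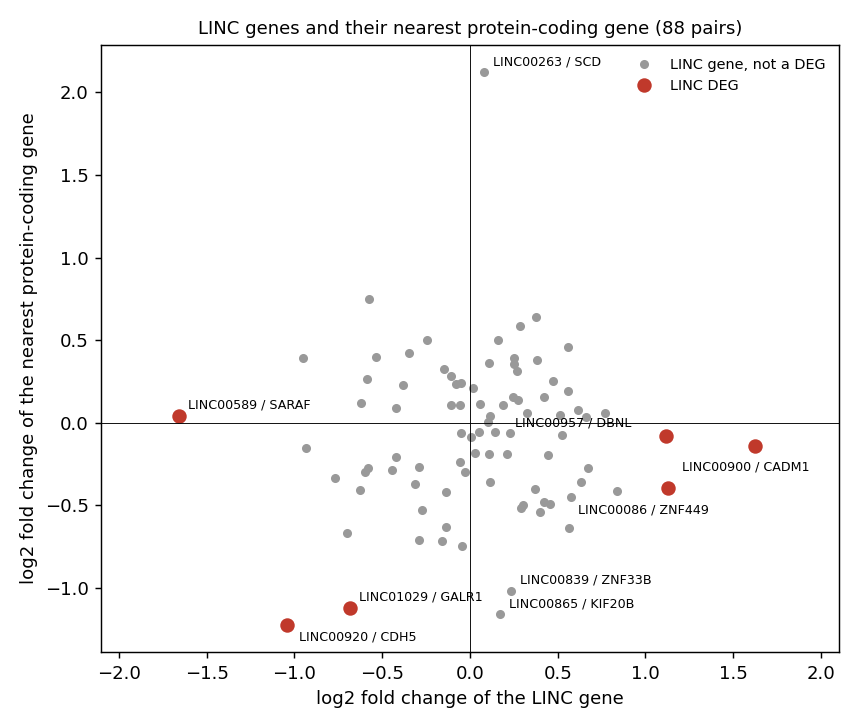
log2FC of the nearest protein-coding gene against that of the LINC gene for 88 of the 89 pairs in which both were tested, with LINC DEGs as larger points. The points fill all 4 quadrants; LINC00920 with CDH5 and LINC01029 with GALR1 lie on the same side of 0 on both axes, and LINC00263 stays near 0 beside SCD.

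LINC00263 (OLMALINC) lay 8679 bases from SCD, the fatty acid desaturase gene, on the same strand. SCD rose by a log2FC of 2.12 (edgeR FDR = 3.4e-05, at most 0.000484 with any 1 replicate left out), and LINC00263 had a log2FC of 0.08 (edgeR FDR = 0.799). In 17 cases a LINC gene and a protein-coding gene started within 1000 bases of each other and ran apart. Of the 15 such pairs with both genes tested, 7 had the same sign. No LINC gene of these pairs was a DEG with edgeR (beside 11.5% of all genes), while 4 had an unadjusted p value under 0.05 (beside 30.6%) and 1 was a DEG with DESeq2 (beside 13.5%). Of the 15 partners 2 were DEGs (beside 11.5% of all genes), both lower with Apatinib: ZNF407 (-0.74, edgeR FDR = 0.00955) and ERCC6L2 (-0.63, edgeR FDR = 0.0446). Without control replicate 1 or 2 the FDR was 0.0592 and 0.0610 for ZNF407. For ERCC6L2 it was over 0.05, at 0.0510 to 0.188, when any 1 of the 3 Apatinib replicates or of control replicates 1 and 2 was left out. The LINC genes beside them, LINC00909 and LINC00476, had log2FC values of -0.05 (edgeR FDR = 0.889) and -0.14 (edgeR FDR = 0.688).

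Overlapping genes limit what the counts of a LINC gene can show. Exons of 38 LINC genes overlapped those of a gene on the other strand, and exons of 22 overlapped those of a gene on the same strand. Of the 62 tested LINC genes without either overlap, 6 were DEGs (9.68%, beside 11.5% of all genes). In 14 of the 117 transcripts compared, 50% or more of the length aligned at 95% identity or more with transcripts of other genes, and none of the 8 LINC DEGs compared was among them. LINC00342, which had 61, 104 and 143 counts in the Apatinib replicates, against 175, 191 and 177 in the control replicates, is one such gene (100% in AC159540.2). Its change amounted to a log2FC of -0.70 (edgeR FDR = 0.0955).

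Genes with a reported peptide formed one list of LINC genes. Of its 9 tested members 1, LINC00086, was a DEG (beside 11.5% of all genes), 5 had a log2FC above 0 (beside 50.3%) and 4 below, and the median was 0.10. Besides those named above, LINC00116 (MTLN, which encodes the mitochondrial peptide mitoregulin) had 176, 147 and 126 counts in the Apatinib replicates, against 105, 124 and 132 in the control replicates. Its CPM did not overlap between the groups, and its log2FC was 0.44 (edgeR FDR = 0.132). LINC00961 (SPAAR), whose peptide regulates the response of mTORC1 to amino acids, had a log2FC of -0.38 (edgeR FDR = 0.451). LINC00467 and LINC00665 had log2FC values of -0.08 (edgeR FDR = 0.810) and -0.06 (edgeR FDR = 0.794). All 12 tested LINC genes that GENCODE 29 types as protein-coding had a median of -0.00295, with LINC00086 the DEG among them.

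The list of well-studied LINC genes had 15 tested members and a median log2FC of 0.25. None was a DEG with edgeR (beside 11.5% of all genes), while 6 had an unadjusted p value under 0.05 (beside 30.6%) and 3 were DEGs with DESeq2 (beside 13.5%). LINC00941 had 86, 129 and 80 counts in the Apatinib replicates, against 61, 65 and 62 in the control replicates. Its groups did not overlap and its log2FC of 0.77 missed the limit narrowly, at an edgeR FDR of 0.0505. LINC00963 had a log2FC of 0.51 (edgeR FDR = 0.0574), also without overlap. LINC00176, now C20orf204, had 24, 43 and 28 counts against 60, 49 and 92, again without overlap, with a log2FC of -0.94 (edgeR FDR = 0.0503).

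The members of that list not yet named were farther from the limit. LINC01021 (PURPL), which p53 induces, had 11, 8 and 19 counts in the Apatinib replicates, against 18, 25 and 6 in the control replicates, and its groups overlapped widely (log2FC -0.27, edgeR FDR = 0.782). LINC00662 had 235, 543 and 196 counts against 278, 223 and 177, and its log2FC of 0.61 (edgeR FDR = 0.254) was 0.05 without Apatinib replicate 2. LINC00511, LINC00205, LINC01116 and LINC00346 had log2FC values of 0.38, 0.25, 0.25 and 0.42, with edgeR FDR values of 0.140, 0.215, 0.283 and 0.335. LINC00641, LINC00265 and LINC00472 had -0.42, -0.06 and 0.11, with edgeR FDR values of 0.311, 0.854 and 0.835.

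Other classes of noncoding gene are given for comparison without a test. Of 271 tested antisense genes 22 were DEGs (8.12%), and of 1574 genes with a clone name 95 (6.04%), beside 11.5% of all genes. Without control replicate 1 or 2 these were 0 antisense genes and 6 genes with a clone name, beside 1.65% and 1.80% of all genes. Of 8 miRNA host genes 1 was a DEG (12.5%, beside 11.5% of all genes). None of 14 SNHG genes was a DEG with edgeR or with DESeq2, and 3 had an unadjusted p value under 0.05 (beside 30.6% of all genes). Of 36 tested long noncoding RNAs of a list of well-studied genes with other names 5 were DEGs (beside 11.5% of all genes). TINCR and TP53TG1 were higher and H19, DLEU2 and MIR17HG lower, and the median log2FC of the list was -0.09. Of these 5, H19 alone kept an FDR under 0.05 whichever replicate was left out (at most 0.0296). The other 4 were over it without control replicate 1 (0.0561 to 0.218), without control replicate 2 (0.0796 to 0.156) and without Apatinib replicate 1 (0.0563 to 0.117). TP53TG1 was also over it without Apatinib replicate 2 (0.0629) or control replicate 3 (0.0562), and MIR17HG without Apatinib replicate 2 (0.0654) or 3 (0.0541).

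The spread between replicates was not the same in all libraries. Apatinib replicate 2 was the farthest from the median of its group in 52 LINC genes and control replicate 3 in 54, of the 119 tested in each group. The sign of the log2 ratio of mean FPKM was that of the edgeR log2FC in 108 of the 119 LINC genes and in all 9 DEGs. With a minimum total of 30 counts, 157 LINC genes were found, of which 120 were tested and 9 were DEGs (7.5%, beside 11.5% of all genes). With a minimum of 120 counts, 8 of 96 were DEGs (8.33%, beside 11.5% of all genes).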

How the data were processed

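RNA-seq of 3 Apatinib and 3 control replicates of SW872 was used, with the groups taken from the labels. The authors deposited a table of counts, whole numbers without normalization, and FPKM values of each replicate. The submitters' processing notes name CASAVA, STAR 2.7.1a and hg19, and the counting program, its annotation and its use of strand are not given in the sources used here. In 1 FPKM file an extra column (1 column) headed with a control's label was not used. In 4688 rows a replicate had a count of 0 and an FPKM above 0, so the 2 tables were not made in the same way.

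The count test was edgeR 4.0.16 under R 4.3.3 (filterByExpr, TMM, quasi-likelihood test, Benjamini-Hochberg FDR over 16290 genes). CPM uses TMM factors, and SD is over 3 replicates. The pairing of replicate numbers was checked by the correlation of deviations from the group means. Alternatives were DESeq2 1.42.0, RLE size factors, 2 other filters, the replicate number as a block, control replicates 1 and 2 summed, no fold change limit, glmTreat, limma 3.58.1 on log2(FPKM + 1) or log2(FPKM + 0.1) for genes with a mean FPKM above 0.5, and leaving out each replicate. The edgeR test was tested on simulated data. Names, exons and neighbours came from GENCODE 29 (GRCh38), matched by Ensembl identifier, and promoters from RefSeq (GRCh38.p14), both of another build than the counts. Near-identical copies were sought with BLAST+ 2.17.0 over at least 100 bases.

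LINC genes named in the text were all DEGs, the 8 with the highest mean FPKM, the tested members of the 2 LINC lists, the rows next to the limit of 60 counts, and nearest protein-coding genes. PUM2, ZNF407, ERCC6L2, LINC00263, LINC00342, LINC00476 and LINC00909 were named after their values were seen, unless a list holds them. The members and lists were chosen with earlier results of these data known. The pair of LINC00910 and its neighbour is not reported here.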

Additional observations from a re-analysis of the deposited data

How the results depend on the processing

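The LINC genes called depended on the fit more than on the scaling. RLE size factors gave the same 9 (7.56%, beside 11.4% of all genes). A minimum of 10 counts in every replicate gave 9, of which 8 were the same (9.09%, beside 12.0% of all genes). DESeq2 called 8 higher and 6 lower (11.8% of those tested, beside 13.5% of all genes), no filter 9 and 7 (13.0%, beside 7.85%), and both kept all 9. Without the filter, all genes include rows with few counts and the LINC genes do not, so these shares are not alike. With control replicates 1 and 2 summed it was 1 and 1 (1.64%, beside 1.75%). The glmTreat test against the fold change limit called 0 and 0, beside 0.454% of all genes (13 LINC genes had an unadjusted p value under 0.05, and edgeR without it called 9). limma called 2 and 1 on log2(FPKM + 1) (3.09%, beside 5.03%) and 3 and 1 on log2(FPKM + 0.1) (4.12%, beside 5.12%). Leaving out 1 replicate at a time gave 1 to 8 higher and 1 to 6 lower. Replicate numbers did not pair the samples (correlations of -0.259, 0.0808 and -0.220, and 0 of 3 Apatinib replicates correlated best with their own number), and the replicate block gave 7 higher and 7 lower (11.8%, beside 13.6% of all genes), 9 of these 14 shared with the fit without the block. The median log2 fold change, 0.05, ran from -0.00187 to 0.0716 over the leave-one-out fits, with the change of sign without control replicate 3.

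The signs of LINC00263, LINC00476 and LINC00909 under other fits are not given here. Among the other named genes that were no DEG, LINC00665 changed sign under limma, to 0.0624 and 0.0678. Leave-one-out ranges crossed 0 for LINC00998 (-0.44 to 0.0713), LINC00094 (-0.0335 to 0.21), LINC00265 (-0.17 to 0.0231), LINC00467 (-0.21 to 0.0287), LINC00472 (-0.16 to 0.30) and LINC01021 (-0.73 to 0.19). None of the 9 LINC DEGs changed direction under a fit that gave it a value, and LINC00086, LINC00842 and LINC00589 had none from limma. The cause of these differences was not tested. LINC00589 had 5 to 12 counts per Apatinib replicate, which limits the precision of its change.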

Other observations

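A further group of genes has a LINC number in GENCODE 29 but another name, often a clone name, in the count table, so that the name rule did not take it. With 60 or more counts, 106 of these genes were tested and 6 were DEGs with edgeR (5.66%, beside 11.5% of all genes), 4 higher and 2 lower. Of the 106, 4 reached the minimum of the filter on low counts in 1 group only, and 2 of these, LINC01929 and LINC01615, are among the 6: they could be tested only because they were high in that group, so their values are a description. Leaving out control replicate 1 left 1 DEG and leaving out control replicate 2 left 2 (beside 1.65% and 1.80% of all genes). Leaving out Apatinib replicate 1 left 1 and leaving out Apatinib replicate 2 left 3 (beside 4.73% and 8.91%). With no filter on low counts it was 14 (13.2%, beside 7.85% of all genes, which then include rows under the minimum of 60 counts). The log2 fold change was above 0 in 71 of the 106, beside 50.3% of all genes, and its median was 0.25 (0.13 without control replicate 3 and 0.14 without Apatinib replicate 2). LINC01929 passed through the controls alone, with 0, 0 and 2 counts in the Apatinib replicates, against 17, 18 and 29 in the control replicates. The ratio of its pooled levels, 29.2 times higher in the controls, rests on 2 counts in the Apatinib replicates. It ignores the spread between replicates and is a description only. LINC01638 had 104, 77 and 80 counts in the Apatinib replicates, against 36, 55 and 47 in the control replicates, without overlap (log2 fold change 1.05, edgeR FDR = 0.0201). Its FDR was 0.101 without control replicate 1 and 0.0684 without Apatinib replicate 1. LINC01615 passed through the Apatinib replicates alone, with 15, 17 and 19 counts against 7, 6 and 7, and no fit without 1 replicate kept its call. LINC02361 and LINC01569 rose by log2 fold changes of 0.89 (edgeR FDR = 0.0304) and 0.88 (edgeR FDR = 0.0362). LINC02361 was over the limit without control replicates 1 (0.0730) and 2 (0.147) and Apatinib replicates 1 (0.0902) and 2 (0.0511), and LINC01569 without any 1 replicate but control replicate 3 (0.0582 to 0.161). LINC01963 fell, with 52, 60 and 78 counts against 105, 96 and 174 (log2 fold change -0.83, edgeR FDR = 0.0383), and its call was lost without any 1 replicate but Apatinib replicate 3 (FDR 0.0744 to 0.114). These genes were chosen after their values were seen.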
